A study of Mus musculus with 38 samples.

Results

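The 7 transcription factors described here are known from mouse and human fat as markers of where a depot lies in the body. They were taken as all non-control probes that the array files name Tcf21, Gata4, Gata6, Nr2f1, Tbx15, Shox2 or En1, which gave 12 of 40628 probes. The RNA came from C57BL/6J mice and is labelled as epididymal infiltrating macrophages of the stromal vascular cells (SVCs), the cells left when adipocytes are removed from digested fat. Mice were put at weaning on 1 of 5 feeds. LFC, the low fat control, and HFC, rich in fat and sucrose, have 10 arrays each, and the HFC feed with 5, 20 or 75 µg of the botanical formulation KAL-1 (called HF5, HF20, HF75) has 6 arrays at each dose. The first pair was sampled at days 6, 10 and 14 (D6, D10, D14) and at weeks 0, 3, 6, 9, 12, 15 and 18 (W0 to W18), and the KAL-1 groups at W3 to W18. Weeks are counted from day 14, so W0 falls on day 14, as D14 does, and W3 on day 35. Each diet and time point has 1 array, so no time point has its own replicate error, and whether an array holds RNA of 1 mouse or of several is not given in the sources used here. The dose is that of the sample's source name. At W15 and W18 the diet field of the HF5 and HF20 arrays names the other of these doses.

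Tcf21 is a basic helix-loop-helix factor of mesenchymal precursors, Gata4 and Gata6 are zinc finger factors of mesoderm and endoderm, and Nr2f1 is an orphan nuclear receptor, and all are known for higher expression in visceral fat, to which the epididymal depot belongs. Tbx15, a T-box factor, and Shox2 and En1, both homeobox factors, are known for higher expression in subcutaneous fat, and Tbx15 is also expressed in brown fat and in glycolytic muscle. Precursor cells keep these programmes in culture and after transplantation, so the genes are used to tell which depot a preparation came from.

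In RefSeq (GRCm38.p6) the gene of Tcf21 lies at chr10:22817263-22820143, of Tbx15 at chr3:99240348-99354260 and of Shox2 at chr3:66971723-66981771. Tcf21 and Tbx15 had the widest ranges of level, and the 60-base probes below show what was hybridised for them. The first is the only Tcf21 probe, and the other is the weakest of 3 Tbx15 probes. Each reads through without a stop codon in 1 of 3 frames, and neither has a stretch singled out in capitals.
Tcf21 probe GT_Mm_44k_51_P459944: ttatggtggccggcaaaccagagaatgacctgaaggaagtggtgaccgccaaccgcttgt
Tbx15 probe GT_Mm_44k_52_P648635: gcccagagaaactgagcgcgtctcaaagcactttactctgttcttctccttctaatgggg

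Promoters of Tcf21 and Shox2, a visceral and a subcutaneous member, are shown. On the week 6 arrays described below, Tcf21 lay below its own median over all arrays and Shox2 above its own. The Shox2 spot of LFC at week 6 was not above background. Each covers 300 bases around the RefSeq start site (GRCm38.p6, 5′ to 3′ on the gene's minus strand). Capitals mark the GATA factor motif AGATAA, searched on both strands.
Tcf21, chr10:22820094-22820393: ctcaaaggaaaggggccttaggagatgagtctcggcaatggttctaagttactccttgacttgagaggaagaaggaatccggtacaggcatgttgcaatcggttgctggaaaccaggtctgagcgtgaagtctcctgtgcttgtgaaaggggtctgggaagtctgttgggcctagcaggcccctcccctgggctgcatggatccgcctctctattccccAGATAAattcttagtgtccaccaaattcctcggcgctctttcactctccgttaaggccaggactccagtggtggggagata
Shox2, chr3:66981722-66982021: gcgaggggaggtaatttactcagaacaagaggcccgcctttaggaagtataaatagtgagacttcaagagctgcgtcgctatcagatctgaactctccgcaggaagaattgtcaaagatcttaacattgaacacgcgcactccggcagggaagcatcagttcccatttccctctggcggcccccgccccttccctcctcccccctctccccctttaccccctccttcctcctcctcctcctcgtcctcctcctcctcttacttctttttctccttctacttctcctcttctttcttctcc
The Tcf21 window holds AGATAA 1 time and the Shox2 window does not hold these letters, beside 11.2% of all 32851 promoter windows that hold them. The E-box CAGCTG was in neither window (16.3% of all windows) and the T-box half-site AGGTGT was in neither (13.7% of all windows). A match is a string of letters and not a measured site.

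A level here is log2 of the array's processed signal minus log2 of that array's 75th percentile, so 0 is a probe as bright as the 75th percentile. "Well above background" is the scanner software's flag for a spot clearly brighter than its surroundings, and a level without that flag is only an upper bound. The 75th percentile ran from 25.8 to 1980 signal units (median 1034), and 40.1% to 91.6% of probes were well above background. HF5 W12 was the dimmest array and HF75 W3 the next (75th percentile 88.2), which raises the lowest level that can be seen on both. Macrophage genes were present as the label says, with all 6 markers (Adgre1, Cd68, Csf1r, Lyz2, C1qa and Cd14) well above background on 36 of 38. Markers of stromal cells (5 of 5 on 37 arrays), adipocytes (5 of 5 on 32) and mesothelium (5 of 5 on 30) were above background too, so the preparations held RNA of other cells. In such bulk RNA, fewer cells of a type and less RNA per cell cannot be told apart.

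**Figure D1:**
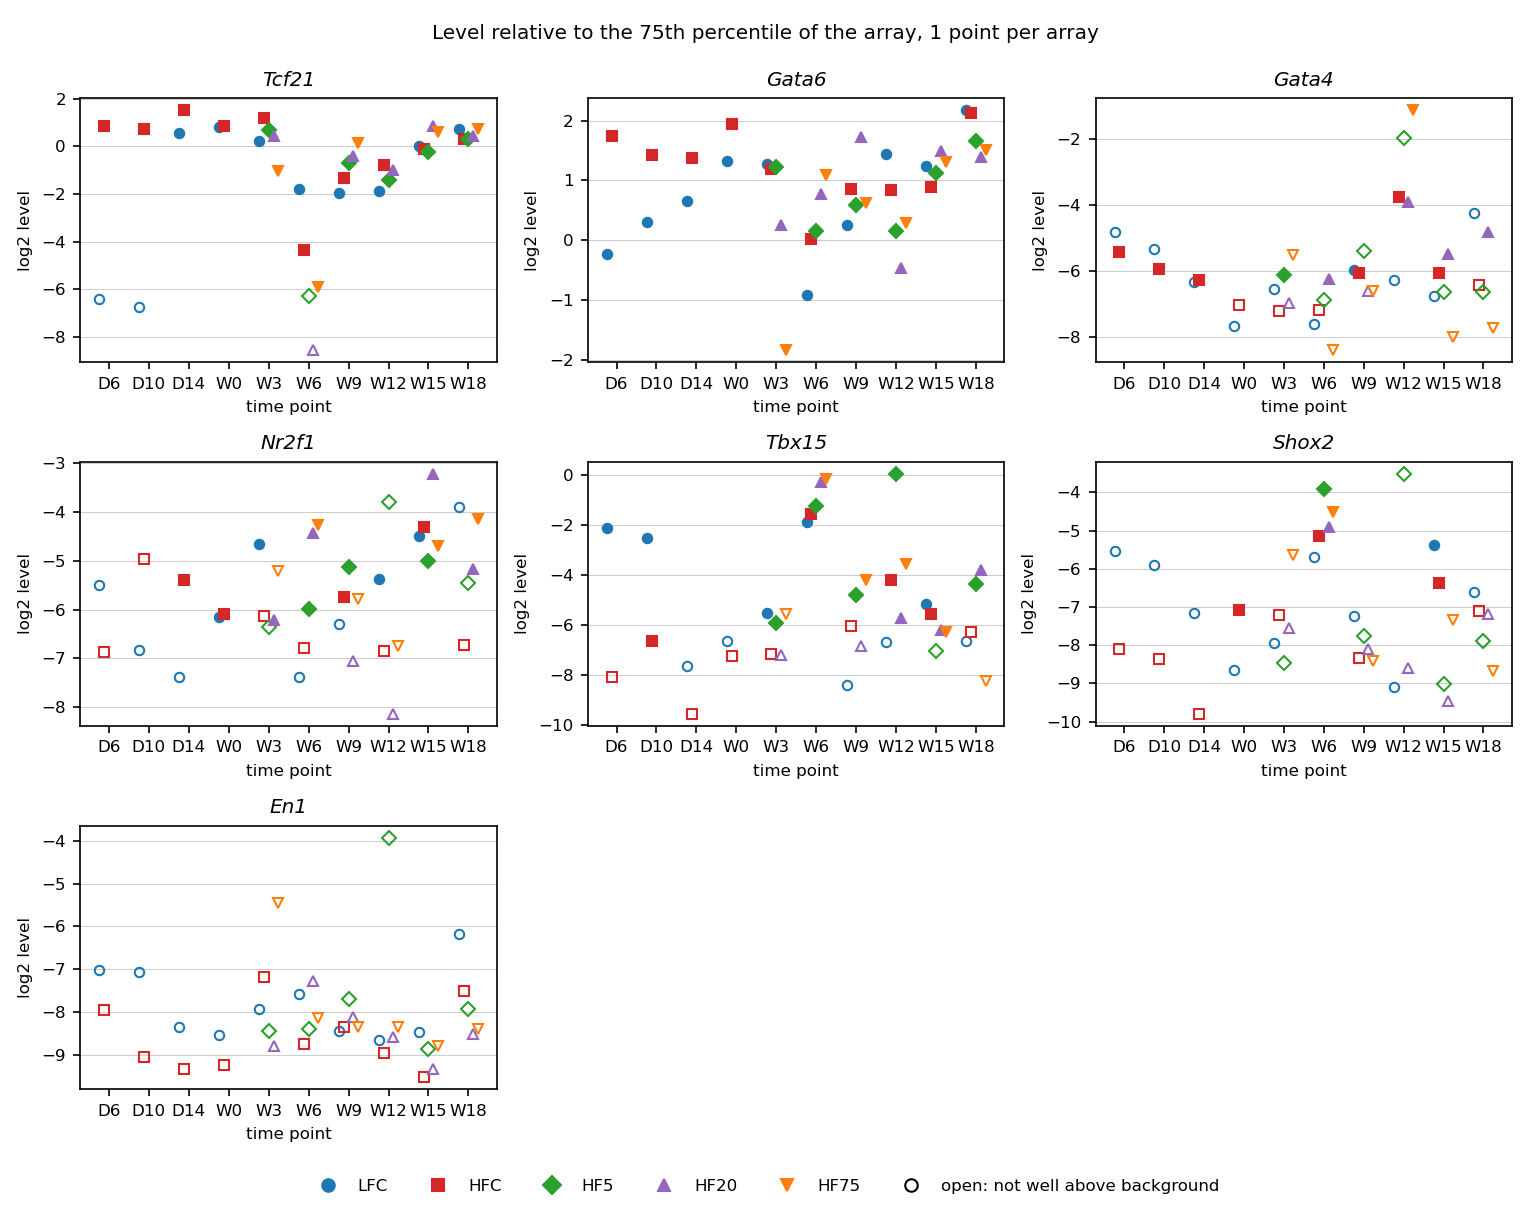
Levels of the 7 members by time point, 1 point per array (log2 relative to the array's 75th percentile, each gene by its brightest probe), with colours and shapes for the 5 diets and open symbols where the spot was not well above background. Tcf21 was far down on LFC D6, LFC D10 and most W6 arrays, where Tbx15 stood high, and En1 was open throughout.

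Among the visceral members, Tcf21 moved furthest. It was well above background on 33 of 37 arrays (its spot on HF75 W12 was an outlier and left out), with a median level of 0.03. At W6 its level was -1.79 in LFC, -4.37 in HFC, -6.28 in HF5, -8.56 in HF20 and -5.90 in HF75, and the HF5 and HF20 spots were not well above background. On LFC D6 and LFC D10 it was -6.41 and -6.76, again not above background, while HFC of the same days stood at 0.87 and 0.74. The other 30 arrays lay between -1.94 (LFC W9) and 1.53 (HFC D14), so 6 arrays stood clear below all others and LFC W6 lay among the lowest of the rest. At W3 the 5 diets spanned -1.01 to 1.21 and at W9 -1.94 to 0.17, and neither range overlapped the 4 high fat arrays of W6. The lowest other LFC arrays were W9 and W12 (-1.94 and -1.89).

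Gata6 was well above background on all 38 arrays by its brightest probe and varied far less. Its median level was 1.11, its lowest -1.84 on the dim HF75 W3 array and its highest 2.17 on LFC W18. The W6 values were -0.93 in LFC, 0.02 in HFC, 0.15 in HF5, 0.78 in HF20 and 1.09 in HF75. Only the dim HF75 W3 array lay below LFC W6. The median of W6 (0.15) was the lowest of any time point, with W12 next (0.29), and the W6 values overlapped with those of W12 (-0.46 to 1.45). LFC D6 and LFC D10 were at -0.23 and 0.30, against 1.74 and 1.42 in HFC of those days. Gata6 therefore stayed measurable where Tcf21 reached the background. The second Gata6 probe was well above background on 34 of 37 arrays (-5.65 to -1.73) and the third on 20 of 38 (-8.38 to -3.16), and on LFC D6 the third had its highest level of all arrays where the second had its lowest LFC level (-4.96), so the probes disagreed there.

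Gata4 and Nr2f1 were near the limit of what the arrays could see. Gata4 was well above background on 13 of 38 arrays by its brighter probe (median -6.29) and on 2 of 38 by the other. Its measured highs were at W12, with -1.13 on HF75, -3.75 on HFC and -3.91 on HF20. These 3 arrays also had the highest shares of probes well above background of all 38, from 87.3% to 91.6%, and the part of this in the Gata4 values was not tested. Nr2f1 was well above background on 18 of 38 arrays, with a median of -5.62, and all 5 diets were above background only at W15, where it spanned -5.00 to -3.22. At W6 it was above background in HF5 (-6.00), HF20 (-4.42) and HF75 (-4.27), but not in LFC (-7.37, the lowest LFC level) or HFC (-6.78).

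Tbx15 showed the reverse of Tcf21. By its brightest probe (GT_Mm_44k_51_P169659) it was well above background on 22 of 38 arrays, with a median of -5.82. At W6 it was -1.91 in LFC, -1.59 in HFC, -1.25 in HF5, -0.31 in HF20 and -0.19 in HF75, all well above background. LFC D6 was at -2.12 and LFC D10 at -2.52, against -8.09 and -6.65 in HFC of the same days. The dim HF5 W12 array had the highest level of all, 0.03, and it was well above background there. The other 30 arrays lay between -9.54 (HFC D14) and -3.59 (HF75 W12), so these 8 arrays did not overlap with the rest.

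The 3 Tbx15 probes agreed in part. The second probe (GT_Mm_44k_52_P232802) had the same 8 arrays on top, with -2.79 to -0.11 on them, and its next highest level was -3.52 on HFC W12. The third (GT_Mm_44k_52_P648635, printed above) was well above background on 10 of 38 arrays. It was high on HF20 W6 (-4.46), HF75 W6 (-4.62) and HF5 W6 (-5.39), but not above background on LFC D6, LFC D10, LFC W6 or HFC W6. It was also above background on 7 arrays outside this set, from -7.11 on HFC D14 to -4.45 on HF75 W12.

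Shox2 and En1 were mostly unseen. Shox2 was well above background on 7 of 36 arrays, 4 of them at W6: HF5 (-3.92), HF75 (-4.52), HF20 (-4.91) and HFC (-5.13). The other 3 were LFC W15 (-5.37), HFC W15 (-6.37) and HFC W0 (-7.09). On LFC D6, LFC D10 and LFC W6 its spots were not above background. En1 was not well above background on any of the 38 arrays, and its highest levels, -3.93 and -5.45, were on the 2 dimmest ones, where the floor is raised.

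To say which depot each array looked like, every member was set against its own median, the 4 visceral and the 3 subcutaneous members were each averaged, and an array was said to look subcutaneous where the visceral mean was at or below -1 and the subcutaneous mean at or above 1 on the log2 scale. It was said to look visceral where neither was reached. Each median was taken over the arrays of this set, so the call is relative to the set. Looking visceral means only that neither limit was reached, and no visceral expression is required for it. Looking subcutaneous rests on the members alone, and no other subcutaneous fat gene is required for it. LFC W9 and LFC W12 looked visceral with Tcf21 at -1.94 and -1.89, while LFC W6 looked subcutaneous with Tcf21 at -1.79. By the rule 7 arrays looked subcutaneous, 28 visceral and 3 in between. The count depends on scaling and limit: it was 7 with quantile normalization, but 0 with normexp background correction (18 in between), and 1 with a limit of 2. The 7 were LFC D6, LFC D10 and all 5 arrays of W6, and their visceral means ran from -2.06 (HF5 W6) to -1.55 (LFC D6) and their subcutaneous means from 2.0 (LFC D10) to 3.00 (HF20 W6). Those in between were HF5 W12 (0.94 and 4.69), HF75 W3 (-0.70 and 1.61) and HF75 W12 (1.07 and 1.13, without Tcf21). LFC D6, with -1.55 and 2.27, was thus the nearest to the limit inside it and HF75 W3 the nearest outside. However, no subcutaneous member was above background on HF75 W3, and on HF5 W12 only Tbx15 was. The subcutaneous means of these 2 dim arrays therefore rest on levels that are only upper bounds, on HF5 W12 for Shox2 and En1. By diet, 3 of 10 LFC arrays looked subcutaneous, 1 of 10 HFC arrays and 1 of 6 arrays at each KAL-1 dose. On 3 of the 7, LFC D6, LFC D10 and LFC W6, Tbx15 was the single subcutaneous member above background. The call rested on Tcf21 more than on any other member: without Tcf21, 2 arrays looked subcutaneous (LFC W6 and HFC W6), and between 6 and 8 did so without any one of the others.

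**Figure D2:**
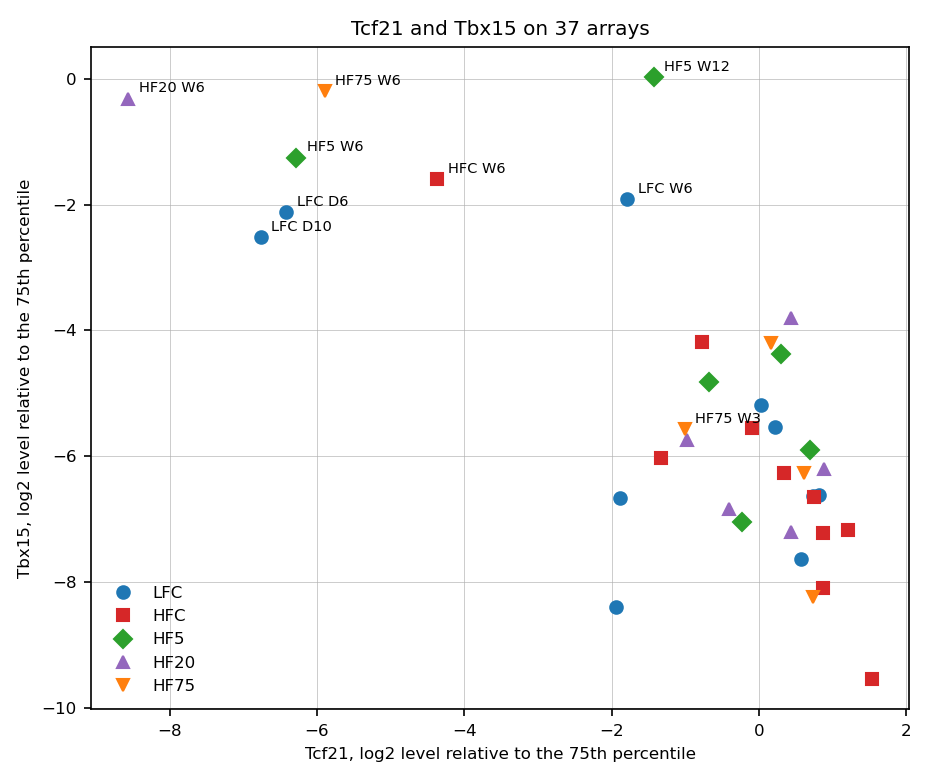
Level of Tcf21 (x axis) against level of Tbx15 (y axis) on 37 arrays (log2 relative to the array's 75th percentile), 1 point per array, coloured by diet. Arrays that did not look visceral are named: 6 of them lie at the upper left, with LFC W6 and HF5 W12 high in Tbx15 but with Tcf21 at -1.79 and -1.43.

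LFC and HFC of D6 shared 1 slide and 1 scan day, and LFC and HFC of D10 shared another. The 5 arrays of W6 lay on 5 different slides and 2 scan days, which held no array of another time point. Week 6 therefore cannot be told apart from its slides and scan days. LFC D6 and LFC D10 were dimmer than most arrays (75th percentiles of 229 and 261). LFC W18 was as dim (229), and Tcf21 was at 0.73 and well above background there. A fit with brightness as a covariate is given with the diet comparison and does not separate brightness from LFC D6 and LFC D10. The part of brightness in the Tcf21 levels of these 2 arrays was not tested.

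Genes outside the rule were read on the same arrays. Wt1, a factor of visceral mesothelium and visceral fat precursors, had a median of 0.21 over the 38 arrays and was at -7.06 and -7.20 on LFC D6 and LFC D10, not above background. At W6 Wt1 was -1.73 in LFC, -5.86 in HFC, -6.06 in HF5, -6.33 in HF20 and -3.73 in HF75. Bnc1, another mesothelial factor, was -6.94 and -7.08 on LFC D6 and LFC D10 and -4.56, -8.79, -8.30, -8.69 and -5.28 at W6 in the same order of diets, against a median of -3.24. Wt1 and Bnc1 were thus highest on LFC W6 among the W6 arrays, as Tcf21 was, and Bnc1 on HF75 W6 overlapped with arrays of other weeks such as LFC W3 (-5.65).

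The other visceral fat genes differed among themselves. Hoxa5, a positional homeobox gene, was -4.80 in LFC, -4.34 in HFC, -4.17 in HF5, -3.82 in HF20 and -2.77 in HF75 at W6 (median -1.49), but -2.58 on LFC D6 and -0.98 on LFC D10. Gpc4, a heparan sulphate proteoglycan, and Thbd, the thrombin receptor thrombomodulin, were well above background on all 38 arrays. Gpc4 nevertheless had its lowest level on HFC W6 (-0.48), was between -0.48 and 0.50 at W6 and 0.83 and 0.94 on LFC D6 and LFC D10, all below its median of 1.15. Thbd was below its median of 3.79 on 4 of the 5 arrays of W6 and on LFC D6, and above it on HF75 W6 (4.00) and LFC D10 (4.41). Hoxc8, a posterior homeobox gene, was not above background on LFC D6 and LFC D10 (-7.17 and -7.49). At W6 it was -7.68 in LFC, its lowest level, -6.62 in HFC, -6.84 in HF5, -5.80 in HF20 and -5.69 in HF75 (median -5.27). Arrays that looked visceral overlapped with these, such as HF20 W12 (-7.14).

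Of the subcutaneous fat genes, Hoxc10, a homeobox gene of posterior body positions, was between -3.24 and -2.86 on the 5 arrays of W6 (median over all arrays -4.45), and its highest level was 0.89 on HF5 W12. Hoxc10 did not separate W6 from arrays that looked visceral, since HF20 W12 (-3.00) and HF75 W9 (-3.14) lay in the same range. On LFC D6 it was -3.50, and on LFC D10 it was -6.37 and not above background. Hoxc9, the neighbouring posterior gene, had the same split, with -0.19 on LFC D6 and -6.28, its lowest level, on LFC D10. Irx1 and Irx2, homeobox genes of the Iroquois family, were low on LFC D10 as well (-4.86 and -6.70, the latter not above background), and Sfrp2, a secreted Wnt modulator, was 0.40 there against a median of 1.56. At W6 the other subcutaneous fat genes did not follow Tbx15. Irx2 was between -3.69 and -2.38, below its median of -1.97 on all 5 arrays, Hoxc9 was between -0.81 and 0.10 (median -0.20), Irx1 between -1.49 and 1.36 (median -1.17) and Sfrp2 between 1.24 and 3.32 (median 1.56). The 7 arrays were also not alike in positional genes, since Hoxc9 and Hoxc10 were not above background on LFC D10 and were on all 5 arrays of W6.

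Among 13 relatives of the members, Tbx5, a T-box factor of forelimb and heart positions, followed Tbx15 rather than Tcf21. Its 2 highest levels were 0.07 on LFC D10 and -1.37 on LFC D6, and the next were -2.26 on HF5 W6, -2.32 on HF20 W6, -2.86 on HFC W6 and -3.47 on HF75 W6. LFC W6 was at -4.89, and the median over 38 arrays was -6.16. Prrx1, a homeobox factor of mesenchyme, was well above background on all arrays, as were Gata2, Nr2f2 and Nr2f6, the ones low in Tcf21 included.

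**Figure D3:**
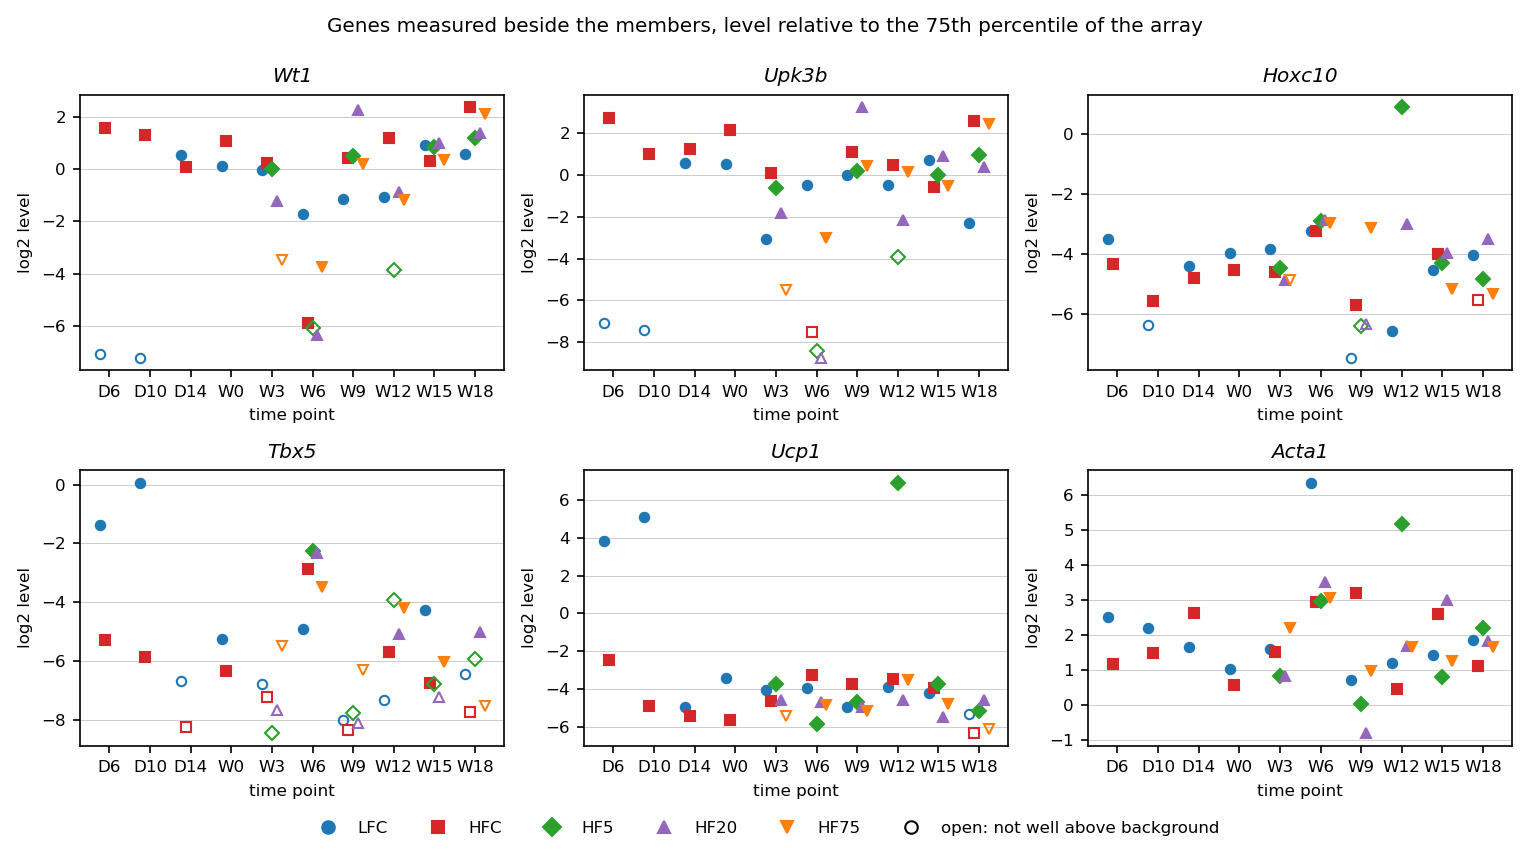
Levels of Wt1, Upk3b (mesothelium), Hoxc10, Tbx5, Ucp1 (brown fat) and Acta1 (skeletal muscle) by time point, 1 point per array, on the same scale and with the same symbols as the plot of the members. Wt1 and Upk3b had their 5 lowest levels on LFC D6, LFC D10, HFC W6, HF5 W6 and HF20 W6, and Ucp1 stood out on LFC D6, LFC D10 and HF5 W12.

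Some markers of other cells moved with the pattern. Mesothelial genes (Msln, Upk3b, Upk1b, Lrrn4 and Krt19) had a mean level of 0.47 in the median array, and of -5.32 on LFC D6, -5.54 on LFC D10, -5.93 on HFC W6, -4.87 on HF5 W6, -5.46 on HF20 W6 and -2.69 on HF75 W6. LFC W6, with 5 of 5 above background and a mean of 0.39, was the exception among the 7. Their part in the Tcf21 values was not tested. Epididymis genes (Crisp1, Lcn5, Lcn8, Spag11b and Adam7), genes of the sperm duct beside this fat depot, were all not above background on LFC D6, LFC D10, HF5 W6 and HF20 W6, but also on LFC W12 and HFC W9 (means of -8.70 and -8.18), which looked visceral. On LFC W6 and HFC W6, 2 of the 5 were above background: Crisp1 was at 6.36 and 5.69 and Adam7 at 4.52 and 2.66, while Lcn5, Lcn8 and Spag11b lay between -8.80 and -6.89 there. On HF75 W6 Adam7 was above background at -5.96. Epididymis genes thus did not separate the 7 arrays from the others.

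Brown fat genes split the 7 arrays again. Ucp1, the uncoupling protein of brown fat mitochondria, was 3.83 on LFC D6, 5.12 on LFC D10 and 6.93 on HF5 W12, and lay between -6.34 and -2.46 on all other arrays. Zic1, a marker of classical brown fat, was -0.95 on LFC D10 and -0.88 on HF5 W12, while on LFC D6 it was -6.33 and not above background. The 3 arrays are thus 3 of the 8 highest in Tbx15, and the part of brown fat RNA in those Tbx15 levels was not tested. At W6 Ucp1 was between -5.85 and -3.24 (median -4.62) and Cidea, a lipid droplet protein of brown fat, between -2.80 and -0.47 (median -0.18). Cox8b, a mitochondrial subunit, was between -1.12 and 2.58 at W6, above its median of -2.03 on all 5 arrays. All 5 brown fat genes were above background on LFC D10, HF5 W12 and HF75 W6. On HF75 W6 Zic1 was -6.00 and Elovl3, the fifth of these genes, was -6.10. Zic1 was also above background on LFC W6 (-4.72) and on LFC W3 (-3.82), which looked visceral.

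Skeletal muscle genes had their highest mean on LFC W6 (4.64) and 4.06 on HF5 W12, against -1.92 in the median array, and lay between 0.09 and 1.92 on the other 6 arrays that looked subcutaneous. Arrays that looked visceral overlapped with that range, such as HFC W9 (0.71) and LFC W12 (0.56). Lymphocyte genes were above their medians on most of the 7 arrays. Cd3g, a subunit of the T cell receptor complex, was between -0.40 and 1.61 at W6 and 0.16 on LFC D6 (median -1.60), but -1.94 on LFC D10. It was also 1.07 on HF5 W9 and on HF20 W9, which looked visceral. Cd79a, a part of the B cell receptor, was between -4.28 and -2.66 at W6, -2.78 on LFC D6 and -4.91 on LFC D10 (median -5.32). Cd3e, another T cell receptor subunit, was between -3.94 and -2.93 at W6, -3.15 on LFC D6 and -2.40 on LFC D10 (median -3.91). The part of muscle and lymphocyte RNA in the members' levels was not tested. Macrophage genes lay between 0.95 and 2.27 on the 7 arrays and stromal genes between 3.64 and 4.55, near their medians of 1.59 and 4.12. Adipocyte genes (Adipoq, Plin1, Cidec, Lep and Fabp4) lay between 0.08 and 3.78 there (median 1.88), and testis genes between -3.46 and 1.44 (median -0.82). Keratinocyte genes ran on the 7 arrays from -7.14 on HF5 W6 to -0.42 on LFC W6, around a median of -3.05, and all 4 were above background on HFC W6.

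The first comparison of the design asks how HFC differed from LFC at the same time point. At D6, 4 members were above background on at least 1 array, and 3 of these were at least 2-fold apart, beside 28.3% of all probes. Tcf21 was at least 112-fold higher in HFC and Tbx15 at least 28.1-fold higher in LFC, while Gata6 was higher in HFC by 1.97 on the log2 scale. At D10 the same 3 of 4 were at least 2-fold apart, beside 44.1% of all probes: Tcf21 was at least 123-fold higher in HFC, Gata6 was higher by 1.11, and Tbx15 differed by -4.13. By the rule on the members, HFC D6 and HFC D10 looked visceral where LFC D6 and LFC D10 looked subcutaneous. This call and diet therefore cannot be told apart on these days. Subcutaneous fat genes outside the rule had a mean of -4.76 on LFC D10, the lowest of all arrays. On LFC D6 their mean was -1.85 (median -1.08). Ucp1 of brown fat was 3.83 on LFC D6 and 5.12 on LFC D10, against -2.46 and -4.93 in HFC. The part of brown fat RNA in these differences was not tested.

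Later differences were smaller and had no common direction. At D14 and W0, Tcf21 differed by 0.95 and 0.06 and Gata6 by 0.73 and 0.62, and 1 of 4 members was 2-fold apart at each, beside 22.4% and 15.6% of all probes. At W3 it was 2 of 4, beside 19.6%. These counts use measured levels, and where 1 spot was not above background the bound can be lower: Shox2 at W0 was at least 1.27-fold higher in HFC, and Tbx15 at W3 at least 1.43-fold lower. At W6, where both arrays looked subcutaneous, Tcf21 was lower in HFC by 2.58 (a difference of -2.58) and Tbx15 differed by 0.32, and 1 of 4 members was 2-fold apart beside 23.4% of all probes. None of the members above background was 2-fold apart at W9, W15 or W18, where 13.7%, 20% and 34.5% of all probes were. At W12, 4 of 5 members were 2-fold apart, but so were 54.2% of all probes, the highest share of any time point.

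**Figure D4:**
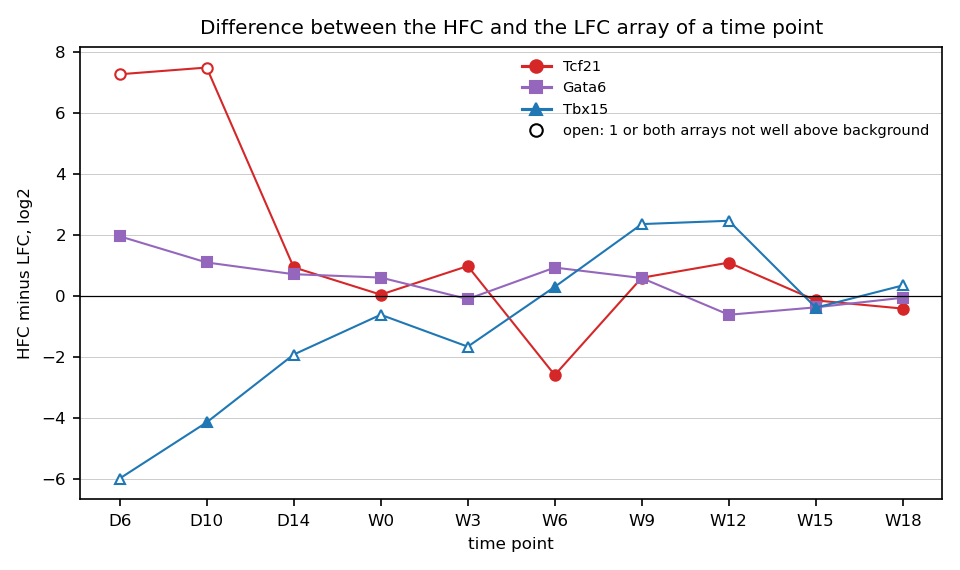
Difference in level between the HFC and the LFC array of each time point (log2, HFC minus LFC) for Tcf21, Gata6 and Tbx15, with open symbols where 1 or both spots were not well above background. Differences of 7.28 and 7.51 for Tcf21 at D6 and D10 stand apart from all later ones.

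Over all 10 time points, no probe passed an adjusted p of 0.05 for HFC against LFC (limma, Benjamini-Hochberg over 31026 probes, 0% called). Before adjustment, 2962 probes, or 9.55%, had p below 0.05. Of the 7 members, 4 passed the filter on low values and none passed the test. Gata4 passed the filter through HFC alone (above background on 6 of 10 HFC and 1 of 10 LFC arrays). Tbx15 passed it through LFC alone (5 of 10 LFC and 4 of 10 HFC arrays). Many of the levels of these genes are upper bounds, which limits their differences here and in the slope below. Tcf21 was 1.54 ± 0.91 higher in HFC (SE, 10 pairs of arrays, adjusted p = 0.56 by limma) and higher at 7 of 10 time points. Gata6 was 0.49 ± 0.24 higher (adjusted p = 0.53 by limma, 6 of 10 time points), Tbx15 differed by -0.91 ± 0.75 (adjusted p = 0.64 by limma, higher in HFC at 4 of 10), and Gata4 by 0.02 ± 0.36 (adjusted p = 0.98 by limma). Among the time points with Tbx15 higher in HFC, W9 and W18 had neither spot above background. Nr2f1, Shox2 and En1 were not tested.

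These differences changed when the first days were left out and when array brightness was a covariate. Without D6 and D10, Tcf21 differed by 0.08 ± 0.39, Gata6 by 0.23 ± 0.22 and Tbx15 by 0.13 ± 0.51, the last with its sign turned (adjusted p between 0.83 and 0.97 by limma). Leaving out week 6 as well, an alternative chosen after seeing the data, gave 0.46 ± 0.24 for Tcf21, 0.12 ± 0.22 for Gata6 and 0.10 ± 0.57 for Tbx15. With array brightness as a covariate, all 3 directions turned, to -0.43 for Tcf21, -0.037 for Gata6 and 1.14 for Tbx15. LFC D6 and LFC D10 were among the dimmest LFC arrays, so this fit does not separate brightness from those arrays. Single time points mattered too: Tcf21 was 0.90 without D6 and 0.88 without D10, Gata6 0.33 without D6, and Tbx15 -0.35 without D6 and -0.55 without D10.

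**Figure D5:**
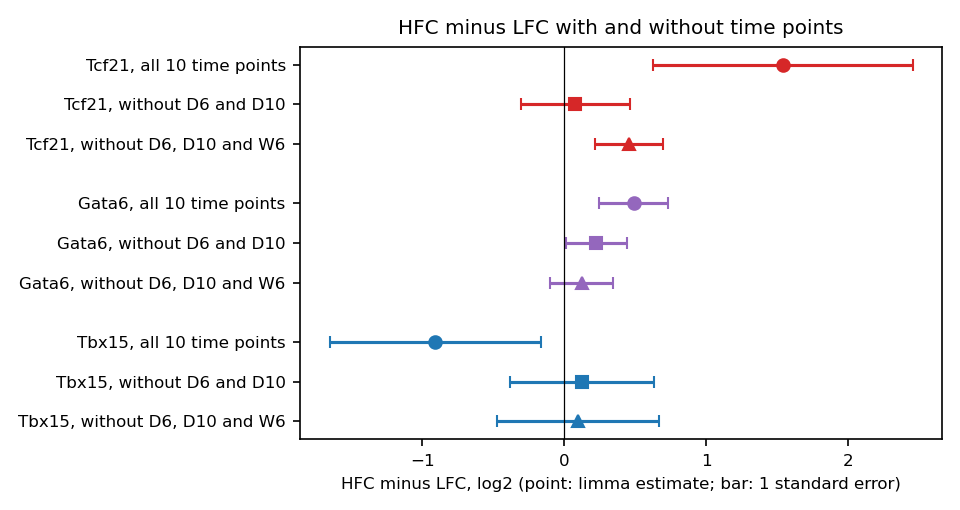
HFC minus LFC for Tcf21, Gata6 and Tbx15 (log2; points are limma estimates and bars 1 standard error) over all 10 time points, without D6 and D10, and without D6, D10 and W6. The Tcf21 estimate goes from 1.54 to 0.08 when D6 and D10 are left out, and that of Tbx15 from -0.91 to 0.13.

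The second comparison asks whether the HFC minus LFC difference changed over the course. For the slope, too, no probe passed (limma, 0% of 31026 called). Before adjustment, 4.18% had p below 0.05. Tbx15 gained 0.26 ± 0.087 per week in the difference (unadjusted p = 0.014, adjusted p = 0.97 by limma), while Tcf21 changed by -0.25 ± 0.12 and Gata6 by -0.080 ± 0.029 per week (adjusted p = 0.97 by limma for both). Without D6 and D10 the slopes were 0.13 ± 0.073 for Tbx15, -0.024 ± 0.064 for Tcf21 and -0.052 ± 0.031 for Gata6.

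The third comparison sets each KAL-1 dose against HFC over W3 to W18, with LFC in the same fit. No probe passed for any dose or for the mean of doses (limma, 0% of 33709 called). Before adjustment, p was below 0.05 for 4.64% of probes in HF5, 1.76% in HF20, 2.01% in HF75 and 1.89% in the mean. Here 5 members were tested, since Nr2f1 passed the filter. It did so only through diets other than HFC (above background on 3 of 6 arrays in HF5, 4 of 6 in HF20 and 3 of 6 in HF75). In HFC its spot was above background only at W9 and W15 of these weeks. The other HFC levels of Nr2f1 are upper bounds, which limits its differences from HFC. Tcf21 differed by -0.43 ± 0.69 in HF5, -0.53 ± 0.69 in HF20 and -0.28 ± 0.74 in HF75, the last without its W12 array. Tbx15 differed by 1.24 ± 0.83, 0.12 ± 0.83 and 0.46 ± 0.83 in the same order, and Gata6 by -0.17 ± 0.45, -0.13 ± 0.45 and -0.49 ± 0.45. Nr2f1 differed by 0.80 ± 0.63, 0.39 ± 0.63 and 0.94 ± 0.63, and Gata4 by 0.50 ± 0.68, 0.44 ± 0.68 and -0.11 ± 0.68. Every one of these differences was within 1.5 times its standard error, and the lowest adjusted p was above 0.99 by limma.

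Week 6 and week 12 decided part of these values. Tcf21 in the mean of doses was -0.42 ± 0.58 with all weeks and 0.02 without W6. Tbx15 in HF5 was 1.24 with all weeks and 0.64 without W12, the week of the dimmest array. At W6 itself, Tcf21 was at least 3.77-fold lower in HF5 and at least 9.67-fold lower in HF20 than in HFC, and differed by -1.53 on the log2 scale in HF75. Shox2 was higher in HF5 by 1.21, and Nr2f1 at least 5.12-fold higher in HF20 and at least 5.70-fold higher in HF75. At that week 2 of 5 members were 2-fold apart for HF5, 3 of 6 for HF20 and 4 of 5 for HF75, beside 15.9%, 19.5% and 25.7% of all probes. These comparisons share the 1 HFC W6 array.

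Lists of related genes gave the same result in the tests across time. For HFC against LFC, 0 of 6 visceral fat genes, 0 of 5 subcutaneous fat genes and 0 of 13 relatives of the members passed, with median differences of 0.39, 0.59 and 0.16 beside -0.0095 for all probes. Mesothelial genes had a median difference of 1.78 (0 of 5 passed, 5 of 5 positive), epididymis genes 2.91 (0 of 4 tested) and brown fat genes -2.13 (0 of 3 tested). For the mean of KAL-1 doses against HFC, the medians were -0.36 for visceral fat genes, 0.42 for subcutaneous fat genes and -0.27 for mesothelial genes, and again none passed.

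Tcf21, Gata6 and Tbx15 were well above background on most arrays, and for these the genes most alike in level over the arrays were read among 29246 to 29248 probes. For Tcf21 these were Atp6v0a4, a proton pump subunit (r = 0.93 over 37 arrays), Tekt1, a tektin of cilia (r = 0.91), and Lrp2, the endocytic receptor megalin (r = 0.91). Rank order changed this: by Spearman's rho, Lrp2 had 0.59 and Spon1, a matrix protein, led with 0.89. For Gata6 they were Tmeff2 (r = 0.84), Naalad2 (r = 0.84) and Tmem100 (r = 0.82), with Fzd1, a Wnt receptor, leading by rho (0.86). For Tbx15 they were Mag, the myelin associated glycoprotein (r = 0.87), 2310046A06Rik (r = 0.87) and Frmd3 (r = 0.85), with Chrna1, a muscle acetylcholine receptor subunit, leading by rho (0.84). Since the arrays fall into separate clusters for Tcf21 and Tbx15, these values describe likeness over this set of arrays and are given without a test.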

How the data were processed

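The files are 38 one-colour Agilent mouse arrays (Cy3). Per the labels the authors used Feature Extraction 9.1, while the file headers name 10.5.1.1. The deposited intensity columns hold background-subtracted processed signals and mean and background signals per spot. A deposited series table holds log2 ratios to LFC of the same time point; the authors' values tracked the scanner differences (lowest r 0.992 across probes), with 3 columns shifted by -0.11 to 0.41.

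Control and outlier spots were left out, 43803 spots were averaged to 40628 probes, and log2 signals were centred on each array's 75th percentile. A probe was kept where, in any diet, the fraction of arrays with the well-above-background flag was 0.5 or more, and was tested with limma 3.58.1 in R 4.3.3, with the time point as a block and Benjamini-Hochberg adjustment at 0.05. Pairing by time point comes from the labels. The fitting code was tested on simulated data. A gene stands for its probe of highest mean level. P-values measure the spread between time points, since each has 1 array per diet, and the number of arrays limits precision.

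Named were all member probes, genes of lists of depot genes, relatives of the members and markers of mesothelium, brown fat, adipocytes, stromal cells, macrophages, skeletal muscle, epididymis, testis and keratinocytes, the lymphocyte genes Cd3e, Cd3g and Cd79a, and the 3 genes most like each member for which that fraction over all arrays was 0.5 or more. The members and lists were chosen with earlier results of these data known. A further marker gene is not reported here. Arrays that looked subcutaneous were not averaged or tested against the others. Alternatives changed normalization, background correction, filter, block, slide, brightness, dose label, the test and the time points used. The members' RefSeq accessions matched 7 of 7 symbols (GRCm38.p6); the array headers name mm9, and no coordinate of a probe is given. Probes of Gata6 and of parts of transcripts that could not be placed are not printed.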

Additional observations from a re-analysis of the deposited data

Results flagged for a closer look

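Within each diet the highest and lowest level of every member was set against its neighbours by Dixon's test, which by chance picks about 1 in 20 groups. Of 35 groups of 5 to 10 arrays, 9 had a level far from the others. Tcf21 stood apart at W6 in 4 diets: -4.37 in HFC (next lowest -1.32), -6.28 in HF5 (next -1.43), -8.56 in HF20 (next -0.98) and -5.90 in HF75 (next -1.01), and the HF5 and HF20 spots were not well above background. In LFC no such level was found for Tcf21, where LFC D6 and LFC D10 lie together at the low end.

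Gata4 stood apart at W12, with -3.75 in HFC (next highest -5.43) and -1.96 in HF5 (next -5.42), the latter not above background on the dimmest array. Gata6 was -1.84 on HF75 W3 (next lowest 0.29), an array with a 75th percentile of 88.2. En1 was -3.93 on HF5 W12 and -5.45 on HF75 W3, neither above background. The part of array brightness in these levels was not tested.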

How the results depend on the processing

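No probe passed the adjusted threshold in any of the 6 comparisons under any alternative that was run, the methods' t-test included. For HFC against LFC the smallest adjusted p lay between 0.34 and 0.91 over the alternatives, with 1039 to 4242 probes at an unadjusted p below 0.05. With no replicate block, that is with the time point left out of the model, 1137 probes did so, and Tcf21 was 1.54 with an SE of 0.98, so pairing by time point changed no call. The slide as a random block gave 1.05 for Tcf21.

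Signs that turned all belonged to differences that passed no test, and the cause was not tested. For HFC against LFC, with brightness as a covariate Tcf21 was -0.43, Gata6 -0.037 and Tbx15 1.14. Gata4 was -0.69 with normexp and -0.21 with quantile normalization, and -0.26 to 0.27 with 1 time point left out. Tbx15 was 0.13 without D6 and D10 and 0.10 without W6 as well. The Gata4 slope was -0.072 with brightness, -0.013 with quantile normalization, -0.0014 with slide, -0.030 without D6 and D10, -0.029 without W6 as well, and -0.038 to 0.10 with 1 time point left out. For HF20, the dose of the diet label gave -0.057 for Gata4 and -0.12 for Tbx15, and quantile normalization -0.039 for Tbx15. With 1 week left out, HF20 values ran from -0.33 to 0.10 (Gata6), -0.0085 to 0.73 (Nr2f1), -0.35 to 0.45 (Tbx15) and -0.83 to 0.20 (Tcf21). Those of HF75 ran from -0.66 to 0.26 (Gata4), -0.81 to 0.013 (Gata6) and -0.71 to 0.18 (Tcf21), and Tcf21 in the mean of doses from -0.72 to 0.020. For HF75, Gata4 was 0.093 with quantile normalization and Nr2f1 -0.20 with normexp, and for HF5, Gata6 was 0.089 with brightness. Without W6 and W12, an alternative chosen after seeing the data, Tcf21 was 0.31 in HF20, 0.093 in HF75 and 0.13 in the mean of doses.

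The 7 arrays that looked subcutaneous were 7 again with quantile normalization and with the mean of all probes, and 8 with a limit of 0.5. They were 1 with a limit of 2, 0 with normexp and 2 without Tcf21, and the cause was not tested. Levels below background are bounds, which limits Gata4, Nr2f1, Shox2 and En1 most.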
